A study of Rattus norvegicus with 12 samples.

Results

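The CREB, CREM and ATF factors and their coactivators were measured in total RNA of the rat forebrain. The exposed group was 6 animals that spent 3 hours in a new environment furnished with differently shaped and coloured objects, and the control group was 6 animals left in the standard cage. All were Long Evans males at an age of 6 weeks, kept singly beforehand. The group comprised 10 genes, Crem, Creb1, Creb5, Crebzf, Atf1, Atf2, Atf3, Crtc1, Crtc2 and Crebbp, taken as every probe set that the platform annotation gives to one of these symbols alone. It held 32 of the 31042 probe sets of transcripts on the array, and 10 of 14217 named genes. Each animal was measured on its own array, and values are deposited intensities in arbitrary linear units. Intensities of different probe sets were not compared as amounts of RNA.

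CREB1, CREM and ATF1 are closely related basic leucine zipper proteins that bind the cAMP response element, a short DNA sequence upstream of many genes that neurons switch on when calcium or cAMP rises. Phosphorylated CREB recruits the acetyltransferase CBP, the product of Crebbp, while CRTC coactivators enter the nucleus after dephosphorylation and bind the zipper region. Crem also has an internal promoter rich in cAMP response elements, which gives rise to ICER, a short repressor that lacks the activation domain and competes for the same sites. ATF2 and CREB5 pair with Jun proteins, ATF3 is a stress-induced repressor, and CREBZF is an atypical zipper protein.

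Of these 10 genes, Crem alone had probe sets that passed the test. In exposed animals 5 of its 6 probe sets were higher, by 0.26 to 1.21 on the log2 scale, and in each of the 5 all exposed animals lay above all control animals, as they did at 1.94% of all probe sets. None of the 26 probe sets of the other 9 genes passed, and 4 of these 26 were too dim on every array to show a change. For the other 22 the log2 changes lay between -0.23 and 0.17. The test was limma with Benjamini-Hochberg adjustment over all 31042 probe sets and an adjusted p under 0.05 as the threshold. By it 5 of the 32 probe sets were higher and 0 lower, while 2.56% of all probe sets of the array passed, 1.97% being higher and 0.599% lower. Before adjustment 9 of the 32 had a p under 0.05, against 13.2% of all probe sets. The fit used log2 intensities raised to a floor of 53.9, the 20th percentile of all values, so that a probe set at the floor shows no change whatever its RNA did. Of the 32 probe sets 24 were above the floor on all arrays, 4 on some and 4 on none.

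**Figure D1:**
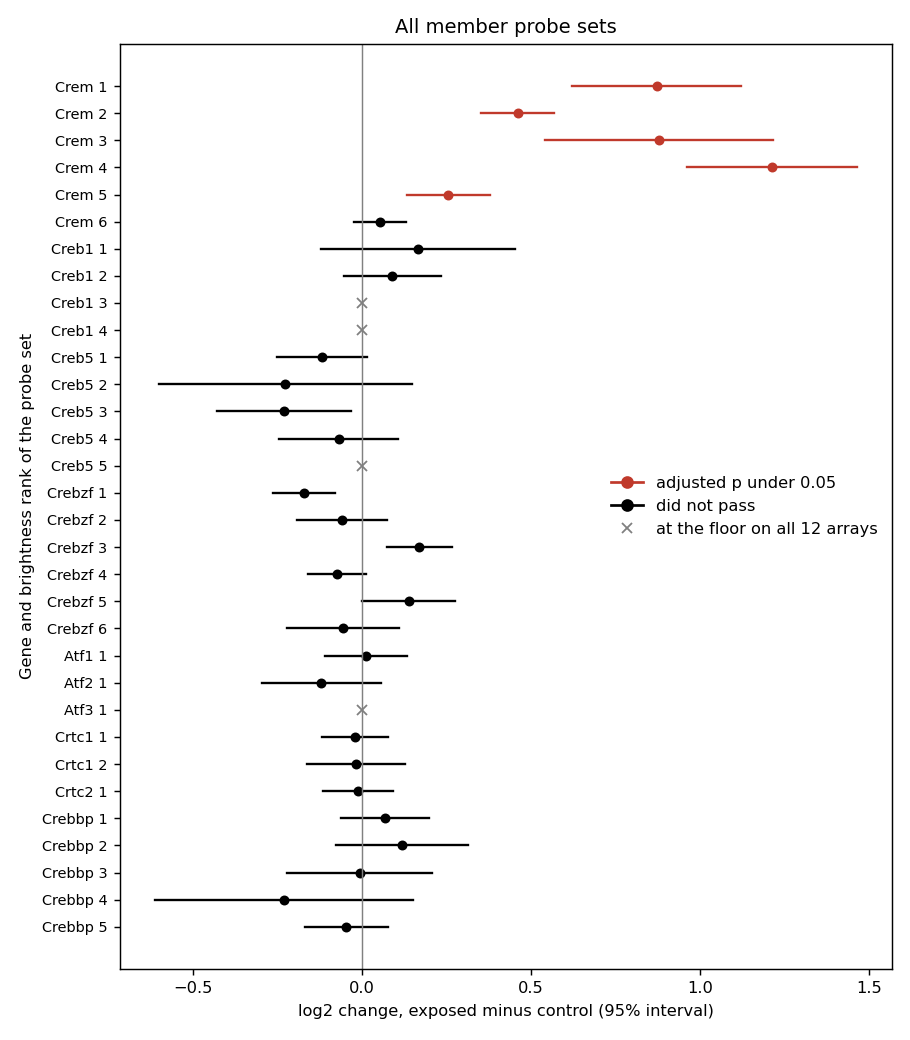
Log2 change, exposed minus control, of all 32 probe sets with its 95% interval from limma (6 animals per group), numbered within each gene from the brightest probe set. The 5 Crem probe sets in red passed the adjusted p threshold, and the 4 crosses mark those that never exceeded the floor.

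Array medians ran from 235 to 245. The 3 prime minus 5 prime difference of array control probe sets, a measure of RNA quality, was 0.45 ± 0.07 in exposed animals and 0.39 ± 0.05 in control animals (log2, SD, n = 6 each). It was highest in exposed animal 3, at 0.586, against 0.391 to 0.443 in the other exposed animals. Exposed animals 3 and 5 had the lowest median correlation with the rest of their group, 0.995 each, against 0.997 for the other exposed animals. With RNA quality as a covariate 4 of the 32 probe sets of this family were higher, all of Crem. Without exposed animals 3 and 5 and control animal 4, a set chosen after seeing the data, the count was 4 as well. The brightest Crebzf probe set was lower in that fit. Control animal 4 did not have the lowest correlation among control animals. All 7 measured forebrain markers exceeded the floor, and their mean log2 intensity ran from 9.97 to 10.13 in exposed animals and from 10.07 to 10.21 in control animals. For 6 hindbrain and midbrain markers the mean ran from 6.46 to 6.90 in exposed animals and from 6.46 to 7.05 in control animals. Of 8 endothelial and mural markers 1 was lower and 0 higher, with a mean of 9.04 to 9.20 in exposed animals and 9.16 to 9.29 in control animals, while of 6 meningeal markers 0 passed, with a mean of 9.73 to 9.93 in exposed animals and 9.86 to 10.07 in control animals. Their part in the results was not tested. In a piece of tissue, a change in the number of cells of a type and a change in RNA per cell cannot be told apart.

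Crem lies on chromosome 17 of the rat (GRCr8, 58932011 to 59001160). The promoter windows of Crem are shown because its RNA rose, and the first Creb1 window because it belongs to the closest relative that did not pass. RefSeq windows, of 250 bases before to 50 bases after a start, were held for 7 of the 10 genes, 10 windows in all, and not for Crebzf, Atf1 and Atf3. Capitals mark each match to TGACG on either strand, the core of the cAMP response element, and where capitals run on for 8 bases they spell the full palindromic element TGACGTCA, which contains the core on both strands. Sequences run 5′ to 3′ from RefSeq, build GRCr8.
Crem window 1, chr17:58933816-58934115, + strand: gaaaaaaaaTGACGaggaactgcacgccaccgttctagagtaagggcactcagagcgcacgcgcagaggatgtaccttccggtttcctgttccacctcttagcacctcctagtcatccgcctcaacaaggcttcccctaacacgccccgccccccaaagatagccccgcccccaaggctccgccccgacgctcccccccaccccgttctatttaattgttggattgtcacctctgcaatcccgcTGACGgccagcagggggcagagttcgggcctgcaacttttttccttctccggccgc
Crem window 2, chr17:58984547-58984846, + strand: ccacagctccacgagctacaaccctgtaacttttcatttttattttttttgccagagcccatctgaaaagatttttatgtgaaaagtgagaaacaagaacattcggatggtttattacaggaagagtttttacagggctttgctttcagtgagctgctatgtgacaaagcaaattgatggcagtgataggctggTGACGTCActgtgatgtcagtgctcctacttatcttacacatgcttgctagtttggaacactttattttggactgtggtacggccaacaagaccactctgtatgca
Crem window 3, chr17:58985240-58985539, + strand: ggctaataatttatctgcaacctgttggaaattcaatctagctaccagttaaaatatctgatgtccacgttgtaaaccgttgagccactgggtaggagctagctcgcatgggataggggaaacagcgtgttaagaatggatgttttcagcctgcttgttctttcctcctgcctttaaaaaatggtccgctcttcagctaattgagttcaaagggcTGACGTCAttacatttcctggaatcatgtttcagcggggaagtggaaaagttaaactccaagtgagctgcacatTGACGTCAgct
Creb1 window 1, chr9:73397259-73397558, + strand: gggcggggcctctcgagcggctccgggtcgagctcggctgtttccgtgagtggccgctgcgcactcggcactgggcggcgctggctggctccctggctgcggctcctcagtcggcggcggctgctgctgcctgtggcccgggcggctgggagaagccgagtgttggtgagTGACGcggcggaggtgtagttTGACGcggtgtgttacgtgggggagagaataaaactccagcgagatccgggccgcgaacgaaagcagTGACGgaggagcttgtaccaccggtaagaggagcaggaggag

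The start used by the first Crem window lies 50731 bases upstream of the start of the second window, and the third start lies a further 693 bases on. All 3 windows lie within the annotated span of the gene. The full element was found once in the second window, 56 bases upstream of the start, and 2 times in the third, 35 bases upstream and 39 bases downstream of the start. The first window held 2 cores and no full element, and the Creb1 window held 3 cores and no full element. Of all 33469 windows of the same length, 1.83% held the full element, 0.0418% held it 2 or more times, and 21.2% held the core on either strand. Among the 10 windows of this family the full element occurred in 2, both of Crem, and the core in 5. A match is a run of letters and not a measured binding site, and the arrays do not say which start produced the RNA.

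The Crem probe sets differed in brightness and in the size of the increase. The brightest, 1378925_at, had intensities of 1721, 1409, 1263, 1432, 1201 and 1352 in the exposed animals numbered 1 to 6, against 778, 923, 899, 679, 652 and 664 in the control animals of those numbers. The lowest exposed animal was above the highest control animal, and the groups did not overlap. Its mean was 1396 ± 182 in exposed animals and 766 ± 121 in control animals (SD, n = 6 each), a log2 change of 0.87 ± 0.11 (SE, 1.83-fold, adjusted p = 0.00191).

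The largest change was at the fourth brightest, 1393550_at, with 209, 221, 159, 178, 181 and 179 in exposed animals, against 77.8, 95.8, 101, 71.0, 70.1 and 72.5 in control animals. All exposed animals were again above all control animals, the closest pair being exposed animal 3 and control animal 3. The log2 change was 1.21 ± 0.11 (2.32-fold, adjusted p = 0.000240), the 18th in size among the 31042 probe sets.

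The second brightest, 1369738_s_at, varied less among exposed animals (SD 19.5) than among control animals (SD 28.6). It read 523, 509, 544, 511, 488 and 500.2 in exposed animals and 339.6, 414, 395, 367, 376 and 346 in control animals. Its groups were apart, and the log2 change of 0.46 ± 0.05 had an adjusted p of 0.000534 (1.38-fold). The third, 1369737_at, read 294, 199, 148, 236, 213 and 183 in exposed animals against 126, 125, 124, 89.1, 109 and 108 in control animals. Exposed animals spread more widely than control animals there (SD 49.9 in exposed and 14.6 in control animals), and the log2 change was 0.88 ± 0.15 (1.84-fold, adjusted p = 0.0115).

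The remaining Crem probe sets were close to the floor. The fifth, 1387714_at, averaged 65.8 ± 6.28 in exposed animals and 53.7 ± 3.05 in control animals (SD, n = 6 each), with 2 arrays at the floor, and passed by a small margin (log2 change 0.26 ± 0.06, adjusted p = 0.0372). The sixth, 1396545_at, averaged 49.9 ± 8.36 in exposed animals and 36.0 ± 4.38 in control animals. As 10 of its 12 arrays were at the floor, its fitted change of 0.05 ± 0.03 (adjusted p = 0.639) is limited from below by the floor. The deposited values of all 6 exposed animals, 40.8 to 62.5, nevertheless exceeded those of all control animals, 29.7 to 39.3. Most of these values were below the floor. In the floored values of the fit 2 exposed animals were above all control animals. The share of all probe sets whose groups were apart in deposited values was not counted.

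**Figure D2:**
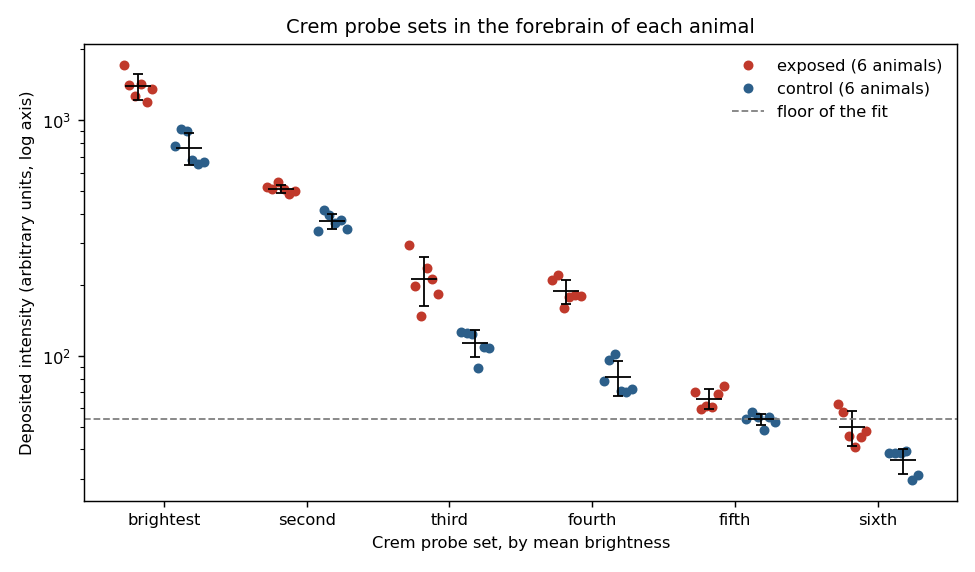
Deposited intensity of the 6 Crem probe sets in each animal (log axis), exposed animals in red to the left of control animals in blue, with the mean and SD of 6 animals as a black bar. In the first 5 probe sets the exposed animals lie above the control animals, the fifth near the dashed floor of 53.9. In the sixth they do so in deposited values that are mostly below the floor.

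Whether probe sets of the same gene changed by different amounts was tested on the log2 difference between each further probe set and the brightest of its gene, in limma over 6609 such pairs of the array, of which 0.908% passed. Among the 22 pairs of this family 4 passed. Of these, 3 were Crem pairs: relative to the brightest probe set, the change was larger by 0.34 ± 0.07 at the fourth (adjusted p = 0.0352), smaller at the fifth (difference -0.62 ± 0.11, adjusted p = 0.0267) and smaller at the sixth (-0.82 ± 0.10, adjusted p = 0.00177). For the fifth and the sixth the floor takes away part of any change. At the fifth only 2 arrays were at the floor, and its own change was at most 0.29 in the 23 other fits that included it. The sixth was at the floor on 10 of 12 arrays, so its difference was mostly the change of the brightest itself (0.87). It therefore does not show that the RNA read by the sixth changed less. With the floor at the 10th percentile the difference at the sixth was -0.43 and missed the threshold (adjusted p = 0.0667). The second differed by -0.41 ± 0.10 and did not pass (adjusted p = 0.0938), and the third by 0.01 ± 0.11 (adjusted p = 1.00). When animals were left out in turn, the difference at the fourth missed the threshold in 8 of 12 fits and that at the fifth in 8 of 12.

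The calls of the brightest, the second and the fourth probe set were kept in each of 24, 24 and 23 other ways of fitting the data that were run for them, with adjusted p of at most 0.0238, 0.0156 and 0.0278. The call of the third was lost in 2 of 24 such fits, with an adjusted p of 0.103 with the floor at the 40th percentile, and that of the fifth in 13 of the 23 fits that included it.

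**Figure D3:**
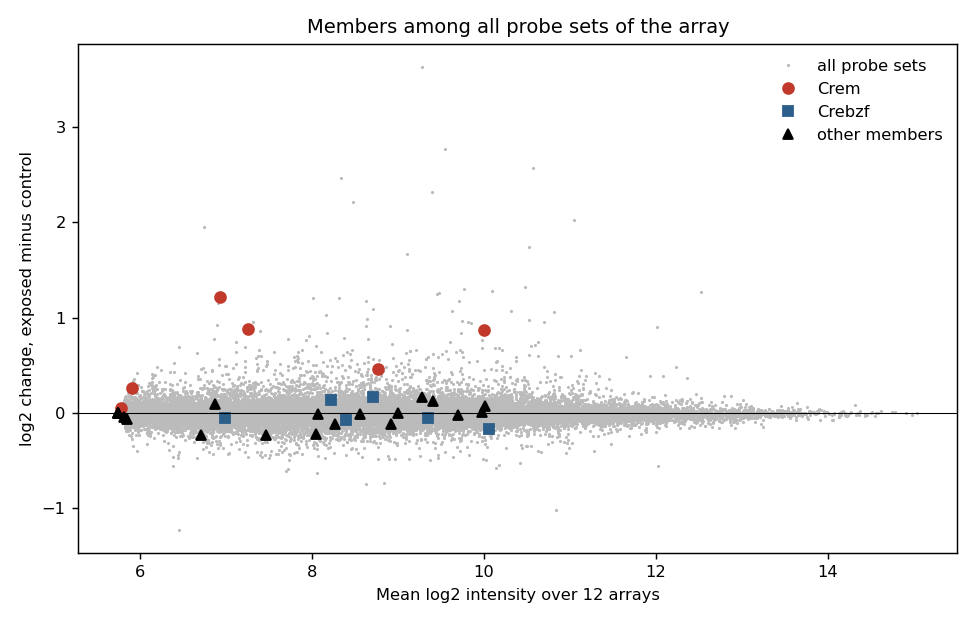
Log2 change, exposed minus control, against mean log2 intensity over 12 arrays for all 31042 probe sets (grey), with Crem, Crebzf and the other members marked. At 4 of the 6 Crem probe sets the change is 0.46 to 1.21, while the other genes of the family lie between -0.23 and 0.17.

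Creb1 codes for CREB itself, and its probe sets gave no change that passed. The brightest read 742, 618, 754, 573, 551 and 749 in exposed animals and 683, 681, 517, 485, 497 and 707 in control animals. Both groups held high and low animals and they overlapped over most of their range. The log2 change was 0.17 with a 95% interval of -0.12 to 0.45 (adjusted p = 0.734), so that a rise of the size seen at the brightest Crem probe set lay outside the interval. The second Creb1 probe set changed by 0.09 (interval -0.05 to 0.23, adjusted p = 0.691), and the other 2 never exceeded the floor. Atf1, which pairs with CREB, averaged 1019 ± 89.2 in exposed animals and 1009 ± 47.5 in control animals (SD, n = 6 each), a log2 change of 0.01 (interval -0.11 to 0.13, adjusted p = 1.00).

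Among the factors that pair with Jun proteins, Atf2 averaged 467 ± 42.1 in exposed animals and 507 ± 50.4 in control animals (log2 change -0.12, interval -0.29 to 0.06, adjusted p = 0.636). Creb5 had 5 probe sets, of which 1 never exceeded the floor and the other 4 all had negative changes that did not pass. The change with the smallest p was at the third brightest, which read 172, 187, 171, 146, 158 and 153 in exposed animals against 215, 212, 220, 166, 171 and 179 in control animals. The groups overlapped there, with 3 exposed animals below all control animals, and the log2 change was -0.23 ± 0.09 (unadjusted p = 0.0259, adjusted p = 0.271). At the brightest Creb5 probe set 5 of 6 exposed animals were below all control animals (log2 change -0.12 ± 0.06, adjusted p = 0.463), and exposed animal 3 was the exception at 347.

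Atf3, a repressor that cells make under stress, was represented by 1 probe set, which never exceeded the floor. Its deposited intensities were 24.3 to 28.1 in exposed animals and 23.1 to 28.8 in control animals, and the ranges overlapped. At this level no change of Atf3 RNA was detectable with this probe set.

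The probe sets of Crebzf did not move together. The brightest, 1393034_at, read 1013, 1049, 898, 1066, 989 and 1059.9 in exposed animals and 1121, 1159, 1175, 1075, 1125 and 1175 in control animals. Every exposed animal was below every control animal, which held for 0.702% of all probe sets, and the change of -0.17 ± 0.04 missed the threshold (adjusted p = 0.0637). The third, 1391454_at, read 441, 480, 404, 427, 458 and 468 in exposed animals and 425, 398, 387, 399.6, 391 and 377 in control animals. Here 5 of 6 exposed animals were above every control animal, exposed animal 3 being the exception, and the change of 0.17 ± 0.04 missed it too (adjusted p = 0.0762).

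The difference between these changes did pass: relative to the brightest probe set, the third was higher in exposed animals by 0.34 ± 0.05 (adjusted p = 0.00777). The fifth, 1394943_at, also had a positive change (0.14 ± 0.06, adjusted p = 0.373), and its difference from the brightest was 0.31 ± 0.07 (adjusted p = 0.0673). The second, the fourth and the sixth had changes of -0.06, -0.07 and -0.06, and none of their differences from the brightest passed. Without exposed animal 3 both the brightest (-0.14, adjusted p = 0.0361) and the third (0.20, adjusted p = 0.0236) passed, in opposite directions. Without exposed animals 3 and 5 and control animal 4 the difference between them no longer passed (adjusted p = 0.0734). The files used here do not say which transcripts the probe sets read.

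**Figure D4:**
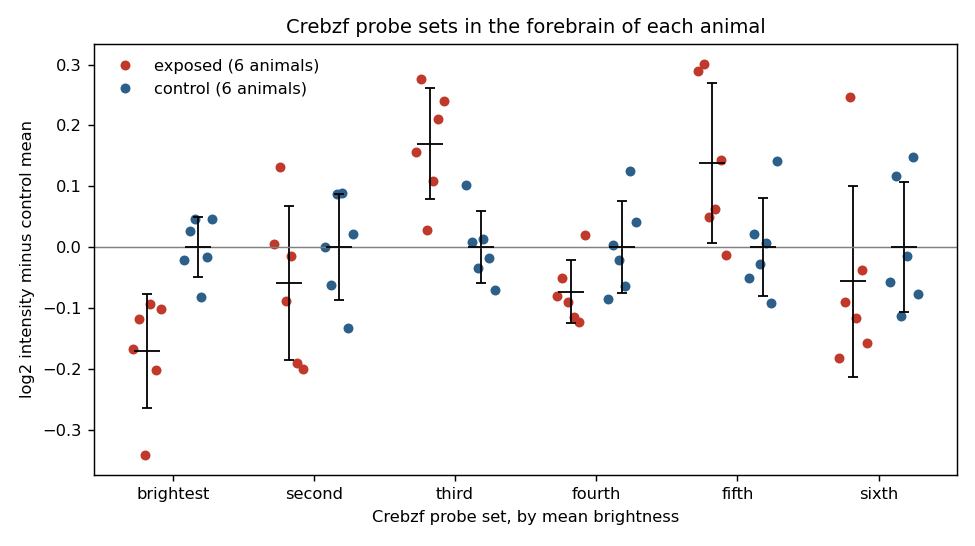
Log2 intensity of the 6 Crebzf probe sets in each animal relative to the mean of the control animals, exposed animals in red to the left of control animals in blue, with the mean and SD of 6 animals as a black bar. The brightest probe set is lower in all exposed animals, whereas the third and the fifth have mean changes of 0.17 and 0.14.

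The coactivators showed no difference that passed, and their intervals lay on both sides of 0. Crtc1, the main neuronal CRTC, averaged 826 ± 58.1 in exposed animals and 837 ± 24.4 in control animals at its brighter probe set (log2 change -0.02, interval -0.12 to 0.08, adjusted p = 1.00). The dimmer probe set of Crtc1 changed by -0.02 as well. At both, the SD was larger in exposed animals, 30.0 against 3.39 in control animals at the dimmer probe set. Crtc2 read 340.0 to 404 in exposed animals and 347 to 405 in control animals (log2 change -0.01, interval -0.12 to 0.09, adjusted p = 1.00).

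Crebbp, which codes for CBP, had 5 probe sets and none passed. The brightest averaged 1066 ± 59.6 in exposed animals and 1018 ± 88.5 in control animals (log2 change 0.07, interval -0.06 to 0.20, adjusted p = 0.782). The changes of the others ran from -0.23 (interval -0.61 to 0.15) to 0.12. The lowest was at a dim probe set where exposed animal 5 read 55.2 and the other exposed animals 90.1 to 119.

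Genes around these factors were described by 3 lists, by the brightest probe set of each gene. Over 1 probe set per gene 2.62% of 14217 genes were higher and 0.844% lower. Of 40 measured genes known as targets of CREB, 27 were higher and 0 lower, with a median log2 change of 0.53 against a median of 0.00 over all genes. Egr1 averaged 9150 ± 390 in exposed animals and 3794 ± 170 in control animals (SD, n = 6 each), a log2 change of 1.27. The changes of Egr2 and Fos were 3.63 and 2.77, those of Arc, Nr4a3 and the cyclooxygenase gene Ptgs2 2.57, 1.32 and 1.26, and the largest adjusted p of these 6 genes was 1.91e-05. Penk and Sst, neuropeptide genes with known cAMP response elements, had changes of 0.12 (adjusted p = 0.471) and 0.01 (adjusted p = 1.00). Many genes of this list are also targets of other factors, and the list was made with earlier results of these data known.

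Of 40 measured genes that act upstream of CREB or its coactivators, among them cyclases, protein kinase A subunits and their inhibitors, calcium-dependent, ERK-dependent and salt-inducible kinases, phosphatases and phosphodiesterases, 4 were higher and 0 lower, with a median change of 0.00. The 2 largest increases that passed were salt-inducible kinases, which keep CRTC proteins out of the nucleus. Sik2 averaged 1608 ± 88.0 in exposed animals and 1102 ± 51.5 in control animals (log2 change 0.55 ± 0.04, adjusted p = 6.34e-05), and Sik1, which is also counted among the targets, averaged 212 ± 28.1 in exposed animals and 134 ± 14.8 in control animals (0.66 ± 0.10, adjusted p = 0.00463). Prkar2a, a regulatory subunit of protein kinase A, and Adcyap1, which codes for the peptide PACAP, were higher by 0.16 each (adjusted p = 0.0393 and 0.0438). The call of Sik1 was lost in 1 of 24 fits and that of Sik2 in 0. Those of Prkar2a and Adcyap1 were lost with RNA quality as a covariate and in most fits with 1 animal left out. Prkar1a and Ppp3ca, bright genes of the list that did not pass, changed by 0.04 (adjusted p = 0.342) and -0.02 (adjusted p = 0.923).

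Of 17 other measured genes of the CREB and ATF family and its coactivators, 2 were higher and 0 lower, with a median change of 0.03. Ddit3, the CHOP gene of the stress response, averaged 795 ± 41.8 in exposed animals and 595 ± 44.6 in control animals (log2 change 0.42 ± 0.05, adjusted p = 0.00121). Atf4, a factor of the same response, averaged 4647 ± 179 in exposed animals and 4257 ± 140 in control animals (0.13 ± 0.03, adjusted p = 0.0481), and its call was lost in 9 of the 12 fits with 1 animal left out. Ep300, which codes for the CBP relative p300, changed by 0.05 (adjusted p = 0.814), and Atf6 by 0.04 (adjusted p = 0.784).

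**Figure D5:**
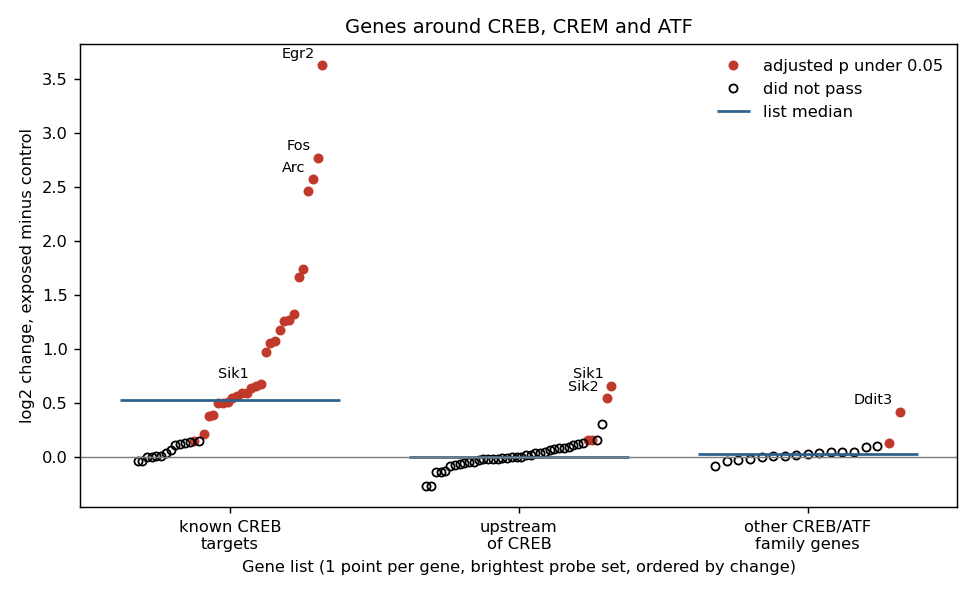
Log2 change, exposed minus control, of each measured gene in the 3 lists, with the list median as a blue line. Targets of CREB spread up to 3.63 (Egr2) with a median of 0.53, while the medians of the upstream list and of the other family genes are 0.00 and 0.03.

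Over the 12 arrays, the genes whose log2 values were most like those of the fourth brightest Crem probe set, the member probe set with the smallest p, were Fosb (Pearson r = 0.978), Homer1 (0.973), Egr4 (0.972), Numb (0.971) and Tslp (0.970). These points share the difference between the groups. For the deviations of each animal from its group mean, r was 0.712 for Fosb, 0.638 for Homer1, 0.594 for Egr4, 0.645 for Numb and 0.672 for Tslp. The highest r of the deviations belonged to other genes, Cp (0.914), Fdft1 (0.899), Vcam1 (0.884), Ankrd42 (0.879) and Cd82 (0.867), and none of these 5 genes passed between the groups, their smallest adjusted p being 0.445. These values are a description over 12 arrays with no test.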

How the data were processed

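Forebrain RNA of 12 rats was extracted with Trizol, cleaned on RNeasy columns and labelled with biotin by the usual Affymetrix steps, per the labels' protocols. The deposited table holds 1 linear intensity for each probe set on each array. The authors' background correction, probe summary and scaling are not given in the sources used here. Array medians lay within 0.06 on the log2 scale, under the limit of 0.1 for rescaling, so none was done. Intensities were raised to the 20th percentile of all values, put on the log2 scale and fitted with limma 3.58.1 (lmFit, eBayes with a trend, group as the only term) in R 4.3.3. Adjustment was by Benjamini-Hochberg over all 31042 probe sets, and 57 array control probe sets were left out. The fits were checked on simulated data. Symbols came from the platform annotation.

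Every member is named. Of each list, up to 6 genes that passed with the smallest p and up to 2 bright ones that did not are named, and 5 genes by each r. Members and lists were chosen with earlier results of these data known. Alternatives were scaling, floors, a dim filter, variance priors, array weights, pairing by number, RNA quality and leaving out animals. The number of arrays limits precision.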

Additional observations from a re-analysis of the deposited data

Results flagged for a closer look

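In 7 of the 55 groups of 6 animals looked at, 1 animal stood far from the rest by Dixon's criterion. Chance flags about 1 in 20 such groups. Exposed animal 3 was high at the brightest Creb5 probe set, with 347 against 274 to 296 in the other exposed animals, and at the dimmest Crebzf probe set, with 154 against 114 to 126. Exposed animal 2 was high at the fourth brightest Creb5 probe set, with 71.1 against 49.5 to 54.4, and low at the second brightest Crebbp probe set, with 589.9 against 712 to 769.8. At that Crebbp probe set control animal 1 was high, with 817 against 595 to 676 in the other control animals. At the third brightest Crebbp probe set exposed animal 5 read 607 against 473 to 515, and control animal 4 read 679 against 455 to 530.3. No Crem probe set was among them.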

How the results depend on the processing

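Alternatives were run 24 times, 12 of them leaving out 1 animal each, and the fit without exposed animals 3 and 5 and control animal 4, as well as all alternatives for the 3 context lists, was chosen after seeing the data. Between 4 and 6 of the 32 probe sets were higher when an animal was left out, and 0 or 1 lower. The count higher was 3 without the dimmest 40%, with the floor at the 40th percentile and with the replicate number as a block. Without the dimmest 40% the fourth and the fifth Crem probe set were not tested, so their calls were not lost by a test there. The count lower was 1 with quantile normalization, with median centring, without the dimmest 40%, with array weights, without probe sets that never exceeded the floor and without the 3 arrays. That 1 was the brightest Crebzf probe set. Over the whole array the count higher was 359 with the replicate block and 453 to 622 with 1 animal left out, and the count lower was 313 with array weights, 76 with the block, 72 with RNA quality, 82 without the 3 arrays and 103 to 182 with 1 animal left out. The Crem pairs among the 4 pairs of probe sets that passed were not tested without the dimmest 40%. Among the 22 pairs of the family, 1 passed without the dimmest 40%, with the block and without the 3 arrays. With RNA quality 2 passed, and with 1 animal left out 2 to 4 did. Without exposed animal 6 the fifth Crebzf difference was gained (adjusted p = 0.0216) and the fourth Crem difference was lost (adjusted p = 0.0644). Over the array the pairs that passed were 20 without the dimmest 40%, 15 with the block and 26 without the 3 arrays. They were 118 with the floor at the 40th percentile, 96 with array weights and 38 without probe sets at the floor. With 1 animal left out they were 40 to 61. The other family genes higher were 1 with median centring, the floor at the 40th percentile, eBayes without a trend or robust, the block and the 3 arrays left out, and 1 or 2 with 1 animal left out. The upstream genes higher were 2 with quantile normalization, the block, RNA quality and the 3 arrays left out, and 2 to 4 with 1 animal left out, with 0 or 1 lower. The targets higher were 23 to 26 with 1 animal left out.

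Signs turned at the floor of the 40th percentile (148) for the difference of the fourth Crem probe set from the brightest (-0.54) and of the third (-0.39), since that floor covers every control value of both, and for the sixth Crebzf probe set (0.0085). With RNA quality, signs turned for Atf2 (0.0055), the third Crebbp probe set (0.078, difference 0.066), the second Creb1 difference (0.085) and the sixth Crebzf difference (-0.0069). With array weights the third Crebbp probe set was at 0.00056. Without the 3 arrays the brightest Crebbp probe set was at -0.017, the third at 0.041 (difference 0.058), the fifth Crebbp difference at 0.0025, the second Creb1 difference at 0.033, the sixth Crebzf difference at -0.0031 and the third Crem difference at -0.0025. With 1 animal left out, signs turned within ranges of -0.032 to 0.040 for Atf1, -0.046 to 0.0095 and -0.060 to 0.032 for Crtc1, -0.037 to 0.018 for Crtc2, -0.056 to 0.073 for the third Crebbp probe set and -0.0044 to 0.036 for Sst. For differences from the brightest probe set they were -0.022 to 0.108 for the fourth of Creb5, -0.142 to 0.043 for the third of Crebbp, -0.042 to 0.077 for the third of Crem and -0.014 to 0.022 for the dimmer of Crtc1. Of these turned values only the fourth Crem difference passed the test, and the cause of the rest was not tested. The numbers were not taken to pair animals, since nothing in the labels says that animals with the same number are paired. The deviations of animals with the same number correlated at -0.08 to 0.16. Of the 6 exposed animals 2 correlated best with their own number, and these values do not decide whether animals were paired. With the replicate block the third and the fifth Crem probe set (adjusted p = 0.0795 and 0.146), the differences of the fourth and the fifth (0.136 and 0.0538), the third Crebzf difference (0.128), Sik1 (0.0742), Adcyap1 (0.0517) and Atf4 (0.147) missed the threshold.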
